A study of Mus musculus with 14 samples.

Results

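The step from 2 to 6 h after ultraviolet (UV) irradiation of mouse back skin was followed across all 10980 genes of the deposited table, in 6 of the 14 libraries of the series. The members of the comparison are the 3 libraries taken 2 h and the 3 taken 6 h after UV, and each 6 h library was set against the 2 h library of its own library set, which gives 3 matched pairs. All groups were wild type C57BL/6 mice whose back fur had been removed by depilation before a mixed UV source was applied, and the skin was sampled at full thickness, so irradiated and unirradiated groups share the strain and the hair removal. The unirradiated group has 2 libraries, and 2 libraries each were made at 0.5, 12 and 24 h. No source used here gives the UV dose, the age of the mice or the hour of the day at sampling, so the effect of more time after UV and that of another hour of the day cannot be told apart. Whether replicate libraries stem from different mice is not stated in the labels, and p-values then measure only the spread between these samples, which may be technical.

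UV light damages DNA, stalls transcription on damaged templates and activates stress kinases, and keratinocytes answer first with short-lived transcription factors and later with secreted factors, envelope proteins and stress keratins. The cornified envelope is the protein shell of dead surface cells, built from loricrin, small proline-rich (Sprr) and late cornified envelope (Lce) proteins. The circadian clock and glucocorticoid signalling also set the level of many skin genes over a day, and long genes need more time than short ones to be transcribed from end to end.

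The samples carried the transcripts that define skin. Over the 6 libraries the basal keratins Krt5 and Krt14 were listed at 1120 to 2240 and 1060 to 2320 FPKM (fragments scaled by transcript length and library size), the suprabasal keratins Krt1 and Krt10 at 317 to 737 and 617 to 1780, and loricrin (Lor) at 135 to 473. The dermal collagens Col1a1 and Col3a1 were listed at 320 to 523 and 177 to 365. Depth could be recovered as whole reads in sets 2 and 3 and was 12490058 and 12327907 reads at 2 and 6 h in set 2, and 15456228 and 14739474 in set 3. It is unknown in set 1.

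The pair of set 3 stood apart from the other pairs. Across genes, which are not independent replicates, the 2 and 6 h libraries correlated at 0.985 in set 1, 0.985 in set 2 and 0.963 in set 3, and the SD of the log2 change was 0.308, 0.278 and 0.504. The 6 h library of set 3 correlated at 0.891 to 0.937 with libraries of other sets, against 0.852 to 0.887 for the 2 h library of that set. The changes of sets 1 and 2 correlated at 0.456 with each other, those of sets 1 and 3 at 0.171, and those of sets 2 and 3 at 0.282. The change in set 3 also correlated at 0.428 with the difference between sets 1 and 3 at 0.5 h, a measure that holds no 2 or 6 h library, against -0.017 for the change in set 1 and -0.059 for that in set 2. Values are therefore given for each set, and the main counts with and without set 3.

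Between 2 and 6 h, 157 genes rose and 72 fell, 1.43% and 0.656% of the genes tested. A gene is called here if its adjusted p was under 0.05 in limma on log2(FPKM + 1) with the library set as a term (Benjamini-Hochberg adjustment over all genes, two-sided). Each change and standard error (SE) below is on that log2 scale, where changes of weakly expressed genes come out too small. The SE comes from the limma fit over all 14 libraries and does not measure the spread between the 3 pairs. The median change was 0.65 among the genes that rose, -0.58 among those that fell and 0.04 over all genes. Changes of over 2-fold were seen for 17 of the risers and 2 of the fallers. At an unadjusted p under 0.05, 1508 genes were higher (13.7%) and 890 lower (8.11%). The direction was upward in all 3 pairs for 2697 genes (24.6%) and downward in all 3 pairs for 1723 (15.7%), and every called gene was among these.

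The count rests on all 3 pairs. Without library set 3, 7 genes were called (0.0638%): Clk1, Cpne1, Ctgf, Enc1, Lce3c and Sprr2g rose and Mapkap1 fell. Each of the 7 had the same direction in set 3, where 55.3% of all genes were higher and 44.5% lower. All 7 were also called with all sets, where every called gene had the same direction in all 3 pairs. Without set 2, 4 genes were called (0.0364%), all upward, among them Krt6b, Lce3c and Pdk4. Without set 1, 112 genes were called (1.02%). Of the 85 called upward there, 67 were also higher in the pair left out, where 57.8% of all genes were higher, and of the 27 called downward 23 were also lower, where 41.7% of all genes were lower. Without the 6 h library of set 3 alone, 81 genes were called, 50 of them among the 157 risers and 18 among the 72 fallers. Without the set as a term 0 genes were called by limma, with 360 at an unadjusted p under 0.05. Scaling moved the split: quantile normalization gave 124 risers and 111 fallers (52.8% upward) and median-of-ratios scaling 129 and 93 (58.1%), against 68.6% upward with the values as deposited.

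**Figure D1:**
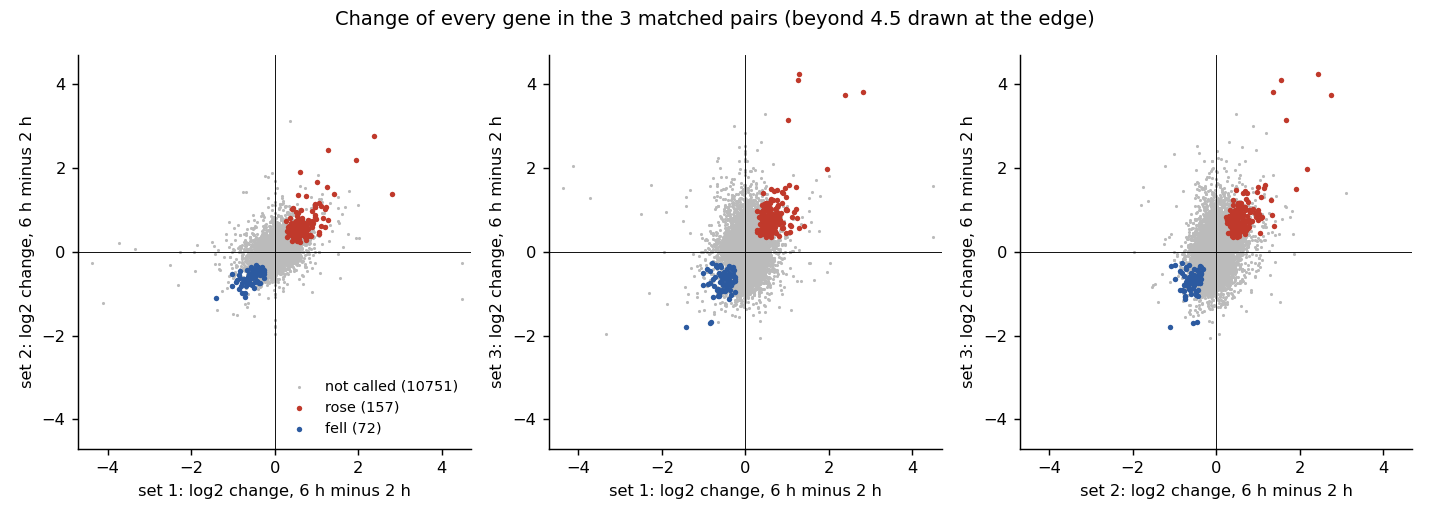
Log2 change of every gene from 2 to 6 h in each pair of library sets (x axis 1 set, y axis another), with the 157 genes that rose in red, the 72 that fell in blue and all other genes in grey. The called genes lie in the same quadrant in all panels because a call needs pairs that move together, and the grey cloud is taller along set 3, whose changes had an SD of 0.504 against 0.308 and 0.278.

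The largest rises were in genes of the cornified envelope and in a keratin of stressed epidermis. Lce3c and Lce3d, neighbouring genes on chromosome 3, encode late cornified envelope proteins of a subgroup that in human skin is known for induction after barrier injury. The windows around their starts are shown because this pair of neighbours moved together: each spans 250 bases before the gene start to the first bases of the gene on the forward strand (RefSeq, build GRCm38.p6; chr3:92944236-92944535 and chr3:92957140-92957439). Capitals mark the longest run of letters that both windows hold, 34 bases.
Lce3c: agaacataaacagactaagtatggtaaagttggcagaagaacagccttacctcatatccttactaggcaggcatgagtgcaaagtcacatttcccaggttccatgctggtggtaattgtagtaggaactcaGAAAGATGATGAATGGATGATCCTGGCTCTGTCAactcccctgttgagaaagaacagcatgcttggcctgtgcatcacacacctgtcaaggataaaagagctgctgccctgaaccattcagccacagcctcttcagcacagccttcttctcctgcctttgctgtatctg
Lce3d: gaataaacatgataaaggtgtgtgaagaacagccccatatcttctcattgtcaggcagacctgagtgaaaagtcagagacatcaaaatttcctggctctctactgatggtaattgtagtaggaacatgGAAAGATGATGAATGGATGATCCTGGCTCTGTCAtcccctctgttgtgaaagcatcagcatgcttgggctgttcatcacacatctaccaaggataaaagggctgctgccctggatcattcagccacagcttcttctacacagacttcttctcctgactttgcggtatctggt
The windows were identical at 241 of 312 aligned columns (77.2%). Copies of this family are alike, and how reads matching several copies were counted is not given in the sources used here, so the split of the values between Lce3c and Lce3d is uncertain.

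Lce3c was listed at 5.95, 1.51 and 3.13 FPKM at 2 h in sets 1, 2 and 3 and at 35.0, 15.9 and 53.9 FPKM at 6 h. Every 6 h library was above every 2 h library, and the gene rose by 2.95 ± 0.23 (SE of the fit, limma adjusted p = 0.00121). The change was 2.37, 2.75 and 3.73 in sets 1, 2 and 3. The recovered reads went from 11 to 114 in set 2 and from 28 to 461 in set 3. Lce3d was listed at 9.88, 2.35 and 0.90 FPKM at 2 h and at 25.6, 17.1 and 34.9 at 6 h, again without overlap, a rise of 2.65 ± 0.47 (adjusted p = 0.0275). Lce3c kept its call in 17 of 18 alternative settings, the exception being the fit without the set.

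Krt6b, a keratin of activated and follicular keratinocytes, was listed at 0.83, 0.17 and 0.65 FPKM at 2 h and at 11.9, 2.03 and 22.0 at 6 h. It rose by 2.66 ± 0.51 (adjusted p = 0.0317), least in set 2, and its levels at 6 h were above all those at 2 h. Its near-identical paralogue Krt6a was listed at 190, 157 and 328 FPKM at 2 h and 150, 158 and 307 at 6 h (difference -0.14 ± 0.16), so that reads of the abundant copy could move the value of the rare one. Sprr2g, a small proline-rich envelope precursor, was listed at 0.83, 0 and 0.10 FPKM at 2 h and at 3.35, 1.93 and 17.8 at 6 h, and rose by 2.30 ± 0.43 (adjusted p = 0.0304). The change of Sprr2g was 1.25, 1.55 and 4.1 in sets 1, 2 and 3. Its reads went from 0 to 16 in set 2 and from 1 to 176 in set 3, so the size of the rise hangs on very few reads at 2 h.

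Of the 28 measured stress keratin and hyperproliferation genes, these 4 rose and none fell, with 14 higher and 2 lower in all 3 pairs. Over all genes 1.43% rose and 0.656% fell, while 24.6% were higher and 15.7% lower in all 3 pairs. At an unadjusted p under 0.05 in limma, 13.7% of all genes were higher and 8.11% lower. The median change of the stress keratin list was 0.58, and it was unequal between sets: 0.10 in set 1, 0.47 in set 2 and 1.18 in set 3. Krt16, the partner of the Krt6 keratins, had 51.5, 28.9 and 27.1 FPKM at 2 h and 72.1, 40.7 and 273 at 6 h (1.42 ± 0.53, adjusted p = 0.162), a large difference in set 3 alone. None of the 43 measured genes of terminal keratinocyte differentiation was called (6 higher and 7 lower at an unadjusted p under 0.05), and their medians were -0.28, -0.14 and 0.55 in sets 1, 2 and 3. Their summed level went from 15742 to 15092 FPKM in set 1, from 9907 to 10292 in set 2 and from 7416 to 13518 in set 3. The hair shaft list likewise differed in sign between the sets (medians -0.22, -0.14 and 0.95), with 1 of 46 genes called, the hair regulator Hoxc13, which rose by 0.56 ± 0.12 (adjusted p = 0.0445). The part of epidermal and follicular content of the set 3 libraries in the rises of the envelope genes was not tested. Without set 3 the changes were 2.56 for Lce3c and 1.40 for Sprr2g, which kept their calls, and 2.09 for Krt6b (adjusted p = 0.205) and 1.86 for Lce3d (adjusted p = 0.0995), which did not. In bulk skin, more or fewer cells of a type and more or less RNA per cell cannot be told apart.

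**Figure D2:**
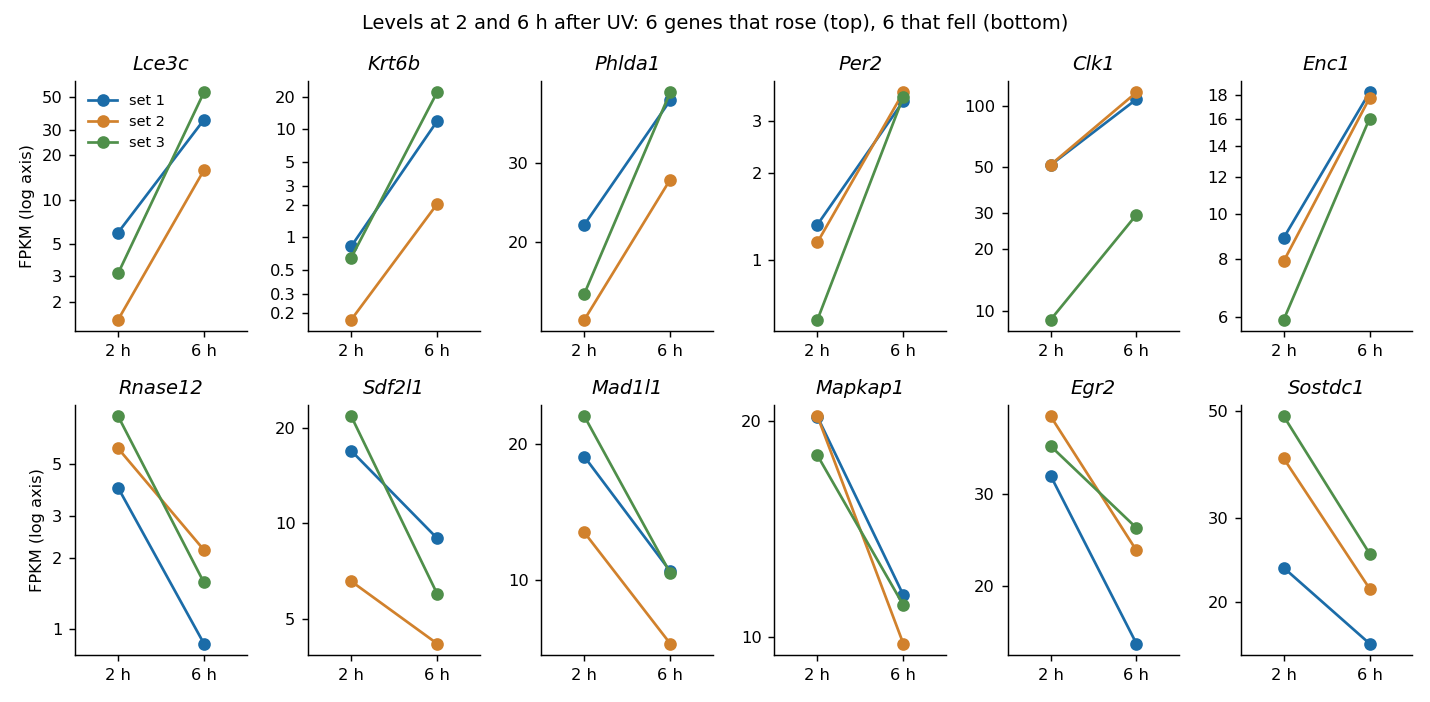
FPKM at 2 and 6 h (log axis, its range differing between panels) of 6 genes that rose and 6 that fell, with 1 line per library set. All lines of a panel slope the same way, and the level at which a set starts can differ more than the change, as for Clk1, which began at 9.02 FPKM in set 3 and at 51.3 and 51.5 in sets 1 and 2.

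Some growth factor and signalling genes were also among the risers. Epgn (epigen), a ligand of the epidermal growth factor receptor (EGFR), was listed at 6.24, 8.09 and 2.51 FPKM at 2 h and 13.7, 27.9 and 30.2 at 6 h, and rose by 1.95 ± 0.40 (adjusted p = 0.0406). The groups did not overlap, and the change was 1.02 in set 1 and 3.15 in set 3. It was the only called gene of the 21 in the EGFR ligand and wound list (1.43% of all genes rose), whose median was 0.20. Another ligand, Areg, had 19.6, 16.5 and 11.5 FPKM at 2 h and 26.1, 25.1 and 27.9 at 6 h (0.73 ± 0.19, adjusted p = 0.0727).

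Feedback regulators of the kinases below that receptor rose as well, in 3 of 20 measured genes (1.43% of all genes), with none falling and a list median of 0.12 (0.34 without set 1). Phlda1, an early response gene of growth factor signalling, was listed at 21.9, 13.5 and 15.4 FPKM at 2 h and 41.3, 27.6 and 43.0 at 6 h, without overlap, and rose by 1.10 ± 0.16 (adjusted p = 0.0151). Dusp6, the phosphatase of ERK, rose by 0.66 ± 0.12 (adjusted p = 0.0308) and by much the same in each set, 0.62, 0.65 and 0.71. Dusp10, a phosphatase of p38 and JNK, rose by 0.50 ± 0.10 (adjusted p = 0.0348). Dusp1, an immediate early member of the same family, had 42.3, 27.2 and 87.5 FPKM at 2 h and 16.4, 19.7 and 67.0 at 6 h (-0.71 ± 0.48, adjusted p = 0.414).

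Of the 33 measured immediate early genes, the first wave after a stimulus, 1 fell and none rose, with 5 higher and 5 lower at an unadjusted p under 0.05. Of all genes, 0.656% fell and 1.43% rose, and 13.7% were higher and 8.11% lower at that unadjusted p of limma. Egr2, a zinc finger factor of that wave, fell from 32.6, 42.3 and 37.1 FPKM to 15.5, 23.4 and 25.9 (-0.79 ± 0.16, adjusted p = 0.0398), with every 6 h library below every 2 h library. Egr1 had 151, 125 and 262 FPKM at 2 h and 75.2, 80.0 and 99.8 at 6 h (-1.01 ± 0.23, adjusted p = 0.0513), just beyond the threshold. Fos had 87.1, 27.6 and 91.5 FPKM at 2 h and 16.9, 15.5 and 45.8 at 6 h (-1.36 ± 0.68, adjusted p = 0.268). Fosl1, a late member of the Fos family, was on the other side, with 1.18, 3.95 and 6.65 FPKM at 2 h and 1.66, 8.51 and 39.9 at 6 h (1.22 ± 0.51, adjusted p = 0.207). The list as a whole had a median of 0.01, with 8 members higher and 10 lower in all 3 pairs.

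Among developmental signals, 3 of 28 Notch, Wnt, BMP and TGF-beta response genes rose (1.43% of all genes) and the list's median was 0.18. Ctgf, a matrix-associated growth factor induced by TGF-beta and YAP, was listed at 15.5, 11.7 and 24.4 FPKM at 2 h and 31.3, 25.5 and 33.8 at 6 h, and rose by 0.83 ± 0.13 (adjusted p = 0.019). The groups did not overlap, and the rise was least in set 3, at 0.45. Bmp4, a ligand of the BMP family, rose by 0.71 ± 0.11 (adjusted p = 0.0172) and the Notch ligand Dll1 by 0.64 ± 0.12 (adjusted p = 0.0346). Sostdc1, a secreted inhibitor of BMP and Wnt signals that marks follicle and basal cells, fell from 23.6, 39.9 and 48.9 FPKM to 16.4, 21.4 and 25.3 (-0.76 ± 0.15, adjusted p = 0.0338). Its groups overlapped, since set 1 was low at both times. Krt15, a keratin of basal and follicle bulge cells, fell from 317, 259 and 484 FPKM to 190, 166 and 318 (-0.66 ± 0.14, adjusted p = 0.0445), and its groups overlapped because set 3 was high at both times. These were the 2 called genes of 27 in the basal keratinocyte list (0.656% of all genes fell), whose median was -0.02. Lefty1, an extracellular inhibitor of Nodal, fell by 0.81 on the log2 scale (SE 0.17, adjusted p = 0.0423).

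Some genes of fat oxidation rose. Of 26 measured targets of the PPAR receptors, lipid-sensing nuclear receptors that drive fat oxidation, 4 rose, none fell and 16 were higher in all 3 pairs, with 2 lower in all 3, and the list median was 0.26. For comparison, 1.43% of all genes rose, and 24.6% were higher and 15.7% lower in all 3 pairs. Cpt1a, which admits fatty acids to mitochondria, went from 43.1, 47.9 and 36.0 FPKM to 73.3, 68.1 and 61.2 and rose by 0.67 ± 0.11 (adjusted p = 0.0201). Hadhb, a subunit of the enzyme complex of beta-oxidation, rose by 0.56 ± 0.11 (adjusted p = 0.0387), and the fatty acid transporter Cd36 by 0.46 ± 0.09 (adjusted p = 0.0406). Pdk4, which holds back glucose oxidation, had a larger but scattered difference, from 19.4, 50.4 and 8.30 FPKM to 64.7, 106 and 29.3 (1.48 ± 0.64, adjusted p = 0.211).

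Adipocyte genes leaned the same way, with 1 of 18 called and 11 higher and 0 lower in all 3 pairs (24.6% and 15.7% of all genes). Plin4, a coat protein of lipid droplets, rose from 13.6, 15.3 and 14.6 FPKM to 33.3, 33.1 and 26.5 (1.04 ± 0.18, adjusted p = 0.0256). The summed level of the adipocyte list went from 2370 to 3354 FPKM in set 1, from 2077 to 2683 in set 2 and from 1995 to 2208 in set 3. Skeletal muscle, which also burns fat and lies under the skin, had summed levels that went from 8497 to 11183 FPKM in set 1, from 7974 to 7339 in set 2 and from 10239 to 6812 in set 3. The part of fat content in the rises of the fat oxidation genes was not tested. With the muscle list as a covariate 54 genes were called, and 18 of the 52 genes that the naming rule gave kept their calls. Cpt1a and Lpin1 kept theirs, whereas Plin4 (1.03, adjusted p = 0.0535), Hadhb (0.55, adjusted p = 0.073) and Cd36 (0.45, adjusted p = 0.073) lost theirs at nearly the same size of change.

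Genes of lipid synthesis were more often lower than higher at 6 h. Of 38 measured genes of cholesterol and fatty acid synthesis, 2 fell, none rose, 23 were lower and 2 higher in all 3 pairs, and 18 were lower at an unadjusted p under 0.05. Among all genes 0.656% fell, and 15.7% were lower and 24.6% higher in all 3 pairs. At that unadjusted p of limma, 8.11% were lower and 13.7% higher. The list median of -0.33 was nearly equal in the sets, at -0.36, -0.27 and -0.32. Mvk, the kinase of mevalonate, fell from 56.6, 35.3 and 67.9 FPKM to 38.3, 22.3 and 35.3 (-0.70 ± 0.11, adjusted p = 0.0187). Srebf1, the factor that switches on fatty acid synthesis genes, fell from 34.2, 27.5 and 42.5 FPKM to 25.3, 20.9 and 26.8 (-0.48 ± 0.10, adjusted p = 0.036). None of 21 sebaceous gland genes, which share the lipid makers of the skin, was called (2 higher and 6 lower unadjusted), and their medians were -0.25, 0.07 and -0.38.

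**Figure D3:**
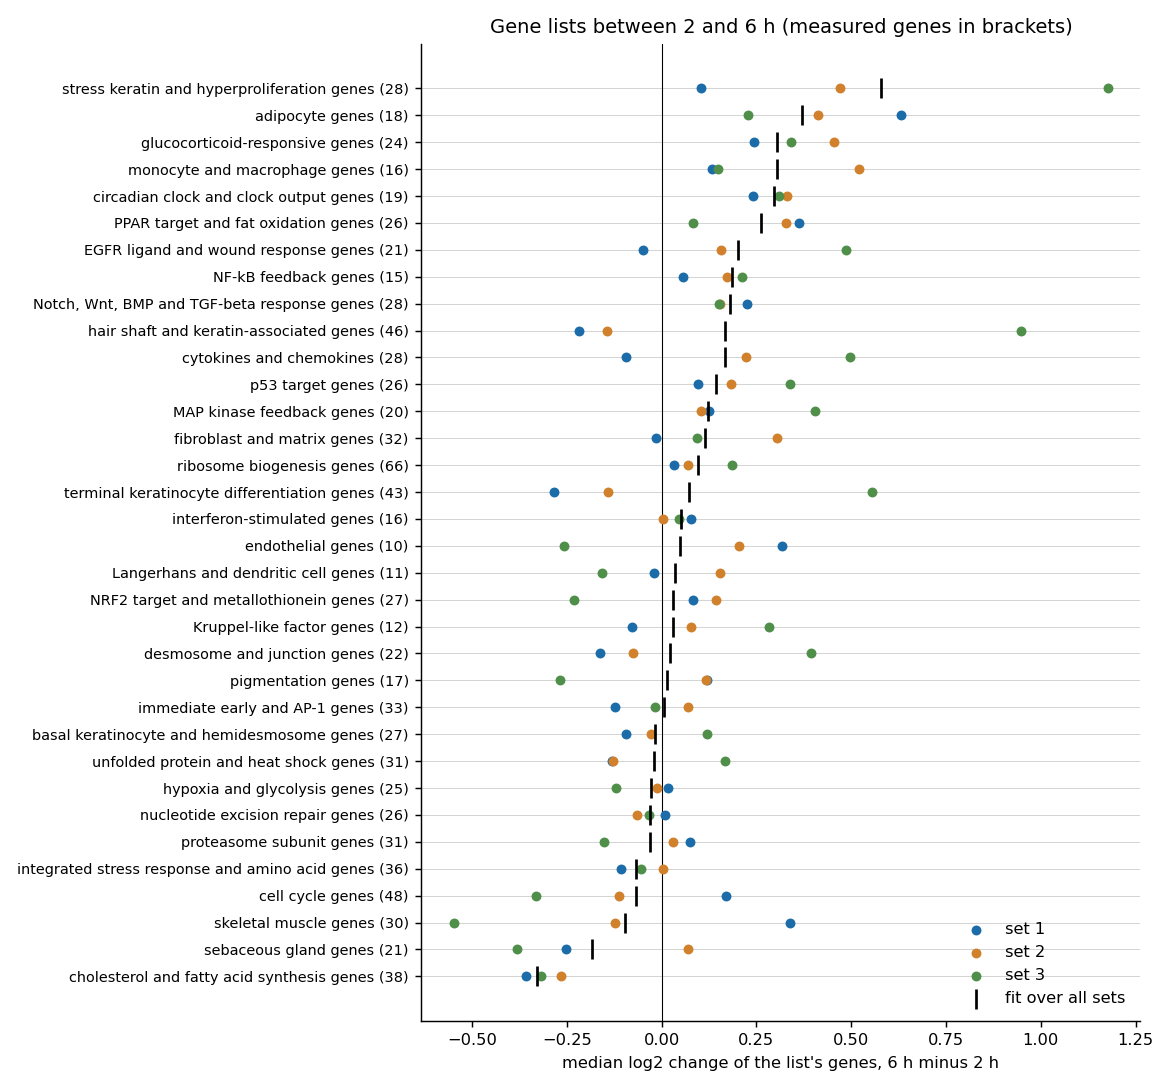
Median log2 change from 2 to 6 h of each gene list with at least 10 measured genes, for each library set (points) and in the fit over all sets (bar). The sets lie close together for cholesterol and fatty acid synthesis (-0.36, -0.27 and -0.32) and the clock (0.24, 0.33 and 0.31), and far apart for hair shaft genes (-0.22, -0.14 and 0.95) and skeletal muscle (0.34, -0.12 and -0.55).

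The lists of clock genes and glucocorticoid-responsive genes had medians above 0 in every set. Of 19 measured clock genes 3 rose (1.43% of all genes), none fell and 10 were higher in all 3 pairs (24.6% of all genes), with a median of 0.30. Per2, a repressor of the clock, was listed at 1.33, 1.15 and 0.63 FPKM at 2 h and at 3.51, 3.76 and 3.63 at 6 h. The levels at 6 h were close together and far above those at 2 h, a rise of 1.20 ± 0.19 (adjusted p = 0.0184). Nr1d2 (REV-ERB beta), a repressor in the second loop of the clock, rose by 0.73 ± 0.14 (adjusted p = 0.0348) and the output factor Tef by 0.67 ± 0.15 (adjusted p = 0.0482). Per1, which also responds to acute stimuli, was not called and had the other sign (-0.46 ± 0.24, adjusted p = 0.285).

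Of 24 measured glucocorticoid-responsive genes 2 rose (1.43% of all genes), none fell and 14 were higher in all 3 pairs, with 2 lower (24.6% and 15.7% of all genes). Fkbp5, a co-chaperone that feeds back on the glucocorticoid receptor, was listed at 7.42, 7.25 and 8.04 FPKM at 2 h and at 13.1, 19.6 and 20.1 at 6 h, without overlap, and rose by 1.10 ± 0.21 (adjusted p = 0.0317). Lpin1, a phosphatidate phosphatase that also acts as a coactivator, rose from 4.56, 5.53 and 4.37 FPKM to 11.02, 12.9 and 8.49 (1.01 ± 0.17, adjusted p = 0.0209). Tsc22d3 (GILZ), a classical target, had 21.6, 17.04 and 30.8 FPKM at 2 h and 32.7, 35.6 and 56.2 at 6 h (0.82 ± 0.21, adjusted p = 0.0727).

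The windows of Tef and Fkbp5 are shown because each holds CACGTG, the E-box read by clock factors (capitals; CCAAT or its reverse complement is also in capitals). Each covers 250 bases before the gene start and the first bases of the gene (RefSeq, GRCm38.p6; chr15:81802423-81802722 on the forward strand and chr17:28486100-28486399 on the reverse strand).
Tef: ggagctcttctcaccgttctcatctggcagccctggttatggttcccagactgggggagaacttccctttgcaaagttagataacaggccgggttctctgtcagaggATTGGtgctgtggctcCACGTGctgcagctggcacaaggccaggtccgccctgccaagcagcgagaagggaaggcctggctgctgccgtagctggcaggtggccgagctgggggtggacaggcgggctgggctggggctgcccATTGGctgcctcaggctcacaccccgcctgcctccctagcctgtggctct
Fkbp5: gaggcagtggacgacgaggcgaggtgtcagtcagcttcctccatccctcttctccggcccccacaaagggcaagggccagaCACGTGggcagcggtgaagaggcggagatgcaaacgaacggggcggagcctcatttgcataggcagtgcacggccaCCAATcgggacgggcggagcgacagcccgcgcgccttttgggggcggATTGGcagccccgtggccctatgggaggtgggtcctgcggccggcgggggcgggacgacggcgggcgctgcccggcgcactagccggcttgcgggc
A match describes letters in the window and nothing of binding. With both strands searched, CACGTG was in the window of 12.7% of the 126 risers with a window, 17.5% of the 63 fallers and 12.1% of 8710 genes of the table. The AP-1 motif TGANTCA was in 5.56%, 1.59% and 6.59%, the cyclic AMP response element core TGACGT in 14.3%, 7.94% and 13.5%, CCAAT in 42.9%, 55.6% and 42.4%, and TATAAA in 15.9%, 11.1% and 9.55%. The Lce3c and Lce3d windows held none of the 5 motifs.

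Among stress programmes few members were called, beside 1.43% of all genes called higher and 0.656% called lower. Nfe2l2 (NRF2), the master factor of the antioxidant response, rose from 17.7, 20.3 and 12.1 FPKM to 35.6, 38.3 and 25.6 (0.96 ± 0.11, adjusted p = 0.00582), while none of the other genes among the 27 of its target and metallothionein list was called and the list median was 0.03. Cebpg, a partner of ATF4, rose by 0.75 ± 0.09 (adjusted p = 0.00806) and Slc38a2, an amino acid transporter of the integrated stress response, by 0.68 ± 0.12 (adjusted p = 0.0295), as the 2 called genes of 36. In the unfolded protein list of 31, Dnajb9, a co-chaperone of the endoplasmic reticulum, rose by 0.73 ± 0.16 (adjusted p = 0.0464). Sdf2l1, another component of that chaperone system, fell from 16.9, 6.57 and 21.8 FPKM to 8.98, 4.18 and 6.01 (-1.03 ± 0.21, adjusted p = 0.0413), and its groups overlapped because set 2 was low at both times. In the hypoxia and glycolysis list of 25, Pfkfb3, which raises the activator of glycolysis, rose by 0.72 ± 0.11 (adjusted p = 0.019), and the glucose transporter Slc2a1 fell from 16.6, 10.9 and 19.1 FPKM to 8.29, 6.19 and 14.2 (-0.69 ± 0.13, adjusted p = 0.0295).

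The lists most tied to DNA damage held no called gene. Over all genes 1.43% were called higher and 0.656% lower, so lists this short would hold few or none. At an unadjusted p under 0.05 in limma, 13.7% of all genes were higher and 8.11% lower. None of 26 p53 targets was called (median 0.14, 7 higher and 1 lower at an unadjusted p under 0.05), and Cdkn1a, the cell cycle inhibitor among them, had 236, 198 and 238 FPKM at 2 h and 260, 234 and 382 at 6 h. None of 26 nucleotide excision repair genes was called (median -0.03, 3 higher and 5 lower unadjusted), nor any of 48 cell cycle genes (median -0.07, 4 and 8). The same held for 15 NF-kB feedback genes (median 0.18, 4 and 0 unadjusted), 28 cytokines and chemokines (0.17, 5 and 1) and 16 interferon-stimulated genes (0.05, 2 and 3). Of these the chemokine Ccl20 had the largest difference, from 3.19, 3.96 and 4.01 FPKM to 5.03, 9.98 and 12.1 (1.02 ± 0.29, adjusted p = 0.0863).

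Markers of infiltrating and resident immune cells were not called either: 0 of 16 for monocytes and macrophages (median 0.30), 0 of 11 for Langerhans and dendritic cells (0.03), 0 of 4 for neutrophils (0.22), 0 of 4 for T cells (-0.25) and 0 of 5 for mast cells (0.34). With 1.43% of all genes called higher and 0.656% lower, counts of 0 in lists this short say little. Without the 2 h library of set 2 the median was 0.01 for the monocyte and macrophage list and 0.08 for the mast cell list. At an unadjusted p under 0.05 in limma, 13.7% of all genes were higher and 8.11% lower. By that measure 1 gene each of the monocyte, neutrophil and mast cell lists was higher and 0 genes of these 5 lists were lower. The summed level of the neutrophil genes went from 195 to 154 FPKM in set 1, from 31.5 to 41.8 in set 2 and from 47.6 to 92.7 in set 3. Of 32 fibroblast and matrix genes Adamts1, a matrix protease, was the only one called and rose by 0.77 ± 0.16 (adjusted p = 0.0438). No gene was called among 10 endothelial, 17 pigmentation, 9 Schwann cell and nerve, 3 red blood cell, 22 desmosome and junction, 12 Kruppel-like factor, 66 ribosome biogenesis, 31 proteasome and 30 skeletal muscle genes. At an unadjusted p under 0.05 (13.7% of all genes higher, 8.11% lower), limma gave 12 higher and 2 lower of the 66 ribosome biogenesis genes. It gave 2 higher desmosome genes, 1 higher and 2 lower Kruppel-like factors, 1 higher and 1 lower pigmentation gene, and 0 in the other lists of this group.

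Several of the larger rises lay outside these lists. Clk1, a kinase that phosphorylates splicing factors, was listed at 51.3, 51.5 and 9.02 FPKM at 2 h and at 107, 116 and 29.4 at 6 h, a rise of 1.27 ± 0.13 (adjusted p = 0.00409). Its groups overlapped only through set 3, which was low at both times. Enc1, an actin-binding kelch protein, was listed at 8.89, 7.91 and 5.92 FPKM at 2 h and at 18.3, 17.8 and 16.0 at 6 h, with no overlap and a rise of 1.11 ± 0.10 (adjusted p = 0.002). Both kept their calls in 15 of 18 alternative settings. Nppb, the precursor of B-type natriuretic peptide, rose from 1.45, 0.99 and 1.29 FPKM to 4.62, 3.01 and 5.65 (1.25 ± 0.23, adjusted p = 0.0295). Mrap, an accessory protein of the corticotropin receptor, rose from 7.85, 3.98 and 7.49 FPKM to 22.6, 12.0 and 12.0 (1.14 ± 0.24, adjusted p = 0.0442). Ifi205, of a family of interferon-inducible proteins with near-identical copies, rose by 1.34 ± 0.28 (adjusted p = 0.0438), with levels of 3.28, 3.69 and 1.33 FPKM at 2 h and 5.56, 16.5 and 5.56 at 6 h. These calls were less steady: Ifi205 and Mrap kept theirs in 6 of 18 alternative settings and Nppb in 6 of 17.

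The largest fall was that of Rnase12, of the ribonuclease A family, from 3.97, 5.82 and 7.98 FPKM to 0.87, 2.16 and 1.57 (-1.44 ± 0.26, adjusted p = 0.0295), with every 6 h library below every 2 h library. Mad1l1, a protein of the spindle checkpoint, fell from 18.7, 12.7 and 23.0 FPKM to 10.5, 7.25 and 10.4 (-0.87 ± 0.10, adjusted p = 0.00582), and Mapkap1 (SIN1), a subunit of the kinase complex mTORC2, from 20.3, 20.3 and 17.9 FPKM to 11.4, 9.78 and 11.1 (-0.80 ± 0.09, adjusted p = 0.00609). Neither overlapped between times. Cbs, which makes cystathionine from homocysteine, fell from 47.9, 39.7 and 68.6 FPKM to 30.6, 23.3 and 32.5 (-0.81 ± 0.14, adjusted p = 0.0239), and Sardh, the mitochondrial dehydrogenase of sarcosine, by 0.75 on the log2 scale (SE 0.15, adjusted p = 0.0348). The other falls of the 15 largest included Fam101a (-0.98 ± 0.21, adjusted p = 0.0442), Dennd1a, an exchange factor of a Rab protein (-0.78 ± 0.11, adjusted p = 0.0135), BC052040 (-0.78 ± 0.15, adjusted p = 0.0348), Supt3 of the SAGA coactivator (-0.75 ± 0.14, adjusted p = 0.0295), Lage3 (-0.75 ± 0.14, adjusted p = 0.0295) and the transcription factor Osr2 (-0.75 ± 0.14, adjusted p = 0.0295).

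The genes that fell spanned more genome than those that rose. The median span from start to end of the gene (RefSeq, GRCm38.p6, for 10938 of 10980 genes) was 37.4 kb for the fallers, 15.8 kb for the risers and 21.9 kb for all genes. Spans over 100 kb were held by 22 of the 72 fallers (30.6%), 3 of the 155 risers with a span (1.94%) and 10.8% of all genes. Of 363 genes over 200 kb, 12 fell (3.31%) and 0 rose. The longest of the named fallers were Dennd1a at 488 kb, Supt3 at 342 kb, Mad1l1 at 313 kb and Mapkap1 at 218 kb.

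The pairs differed in how all genes moved with span. In genes over 200 kb the median change was -0.17 in set 1 and -0.21 in set 2 but 0.15 in set 3, and in genes under 3 kb it was 0.00, 0.01 and -0.21. Spearman's rho between span and change over 10938 genes, which are not independent, was -0.1, -0.138 and 0.287. Long genes were thus lower at 6 h in sets 1 and 2 and higher in set 3, and the called fallers among them went against the trend of set 3. Libraries that share no column with this step showed the same side against unirradiated skin at 12 h, with medians of -0.18 in set 1 and -0.29 in set 2 for genes over 200 kb, and at 24 h of -0.09 and -0.10. At 2 h these genes stood at -0.17 in set 1 and -0.03 in set 2 against unirradiated skin. In set 1 their level at 12 h was thus near that at 2 h, before this step.

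**Figure D4:**
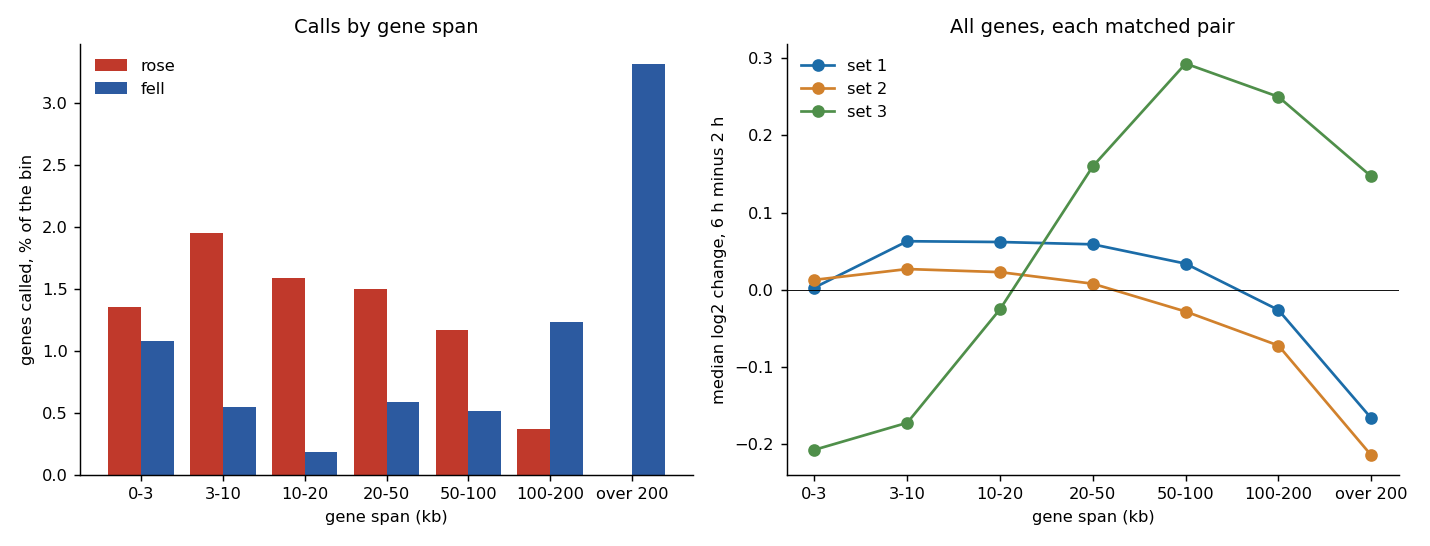
Left, percent of genes called in each bin of gene span (kb); right, median log2 change of all genes of the bin in each library set. In the bin over 200 kb 3.31% of genes fell and 0% rose, and the medians of sets 1 and 2 (-0.17 and -0.21) and of set 3 (0.15) lie on opposite sides of 0.

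Set against the other times, many of the risers were at their lowest at 2 h, and most of the fallers at 6 h. Among all times of sets 1 and 2, the 2 h library was the lowest in both sets for 106 of the 157 risers, against 8.74% of all genes. The 6 h library was the lowest in both for 61 of the 72 fallers, against 9.97% of all genes. The choice of these genes used the 2 and 6 h values, so the counts describe their course and test nothing. Clk1 followed this course, at 88.8 and 70.0 FPKM in unirradiated skin of sets 1 and 2, 51.3 and 51.5 at 2 h and 107 and 116 at 6 h. Enc1 and Nfe2l2 were likewise lowest at 2 h. At 6 h they stood near their levels before UV, 17.8 and 15.8 FPKM for Enc1 and 31.7 and 37.5 for Nfe2l2. Clk1 at 6 h was above its level before UV.

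**Figure D5:**
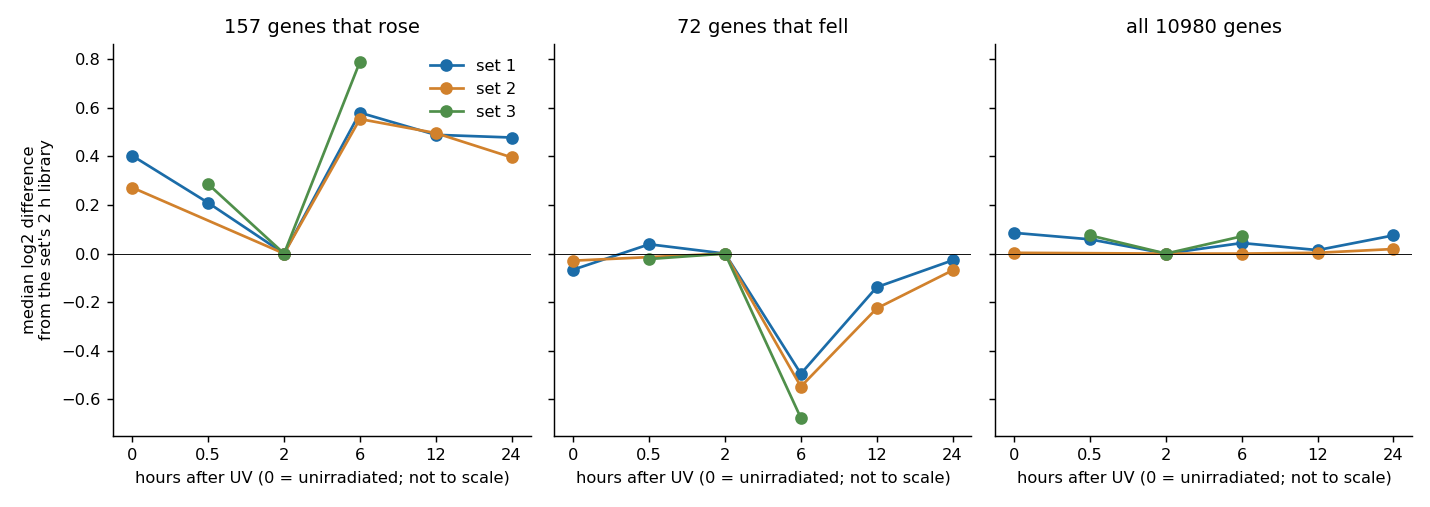
Median log2 difference from the 2 h library of the same set (y axis) at each time after UV (x axis, not to scale), for the genes that rose, those that fell and all genes. In sets 1 and 2 the risers lie 0.40 and 0.27 above the 2 h level before UV and 0.58 and 0.55 above it at 6 h, and the fallers lie 0.49 and 0.55 below it at 6 h and close to it at 24 h; set 2 has no 0.5 h library and set 3 no unirradiated one.

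Contrasts of 12 and 24 h with unirradiated skin share no library with this step and were tested in the same fit. They use the same estimate of each gene's spread, so the counts below are not independent of how the genes were chosen. At 12 h, 63 genes were higher (0.574%) and 355 lower (3.23%) in the whole table. Of the 157 risers 6 were higher (Epgn, Krt6b, Lce3c, Lce3d, Phlda1 and Sprr2g) and 3 lower (Nr1d2, Pfkfb3 and Tef), and of the 72 fallers 0 were higher and 6 lower (Krt15, Man1c1, Osr2, Ptpn6, Sostdc1 and Ttc7). At 24 h, 36 genes were higher (0.328%) and 205 lower (1.87%) in the whole table. Of the risers 5 were higher (Krt6b, Lce3c, Lce3d, Nppb and Sprr2g) and 1 lower (Nr1d2), and of the fallers 0 were higher and 4 lower (Krt15, Osr2, Sostdc1 and Ttc7).

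The envelope genes Lce3c, Lce3d and Sprr2g, with Krt6b and Epgn, were well above unirradiated skin at 12 h. This does not extend to keratinocyte differentiation as a whole. The terminal keratinocyte differentiation list had a median of -1.452 at 12 h against unirradiated skin. The stress keratin list, which holds Lce3c, Lce3d, Sprr2g and Krt6b, had a median of 2.14. Lce3c was listed at 97.9 and 43.1 FPKM at 12 h in sets 1 and 2, from 5.35 and 0.91 in unirradiated skin (4.24 ± 0.28, adjusted p = 0.000187), and stood at 55.6 and 33.3 at 24 h. Krt6b was listed at 79.9 and 11.5 FPKM at 12 h and 276 and 23.6 at 24 h (5.81 ± 0.62 against unirradiated skin, adjusted p = 0.00172). Epgn stood at 30.9 and 38.3 FPKM at 12 h, against 7.38 and 6.35 in unirradiated skin (2.18 ± 0.49, adjusted p = 0.037).

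None of the metabolic and clock genes named above was called higher than unirradiated skin at 12 or 24 h. Nr1d2 was at 4.89 and 7.11 FPKM at 12 h against 14.8 and 19.0 before UV, a fall of 1.36 on the log2 scale (SE 0.18, adjusted p = 0.00368), and Tef at 18.9 and 19.3 against 39.7 and 31.7. Per2 was at 3.63 and 2.02 FPKM at 12 h and 5.47 and 2.75 before UV (-0.40 ± 0.23, adjusted p = 0.405). Osr2 was 1 of the 4 fallers called lower at both 12 and 24 h: 5.85 and 4.95 FPKM before UV, 2.43 and 1.99 at 2 h, 1.05 and 0.87 at 6 h, 1.39 and 0.89 at 12 h and 0.82 and 1.05 at 24 h (-1.73 ± 0.17 at 24 h against unirradiated skin, adjusted p = 0.000893). Egr2, Mvk and Srebf1 were not called at 12 or 24 h.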

How the data were processed

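RNA from full thickness mouse back skin was sequenced before and after UV, in 14 libraries. The authors deposited 1 table of 10980 genes. Its header names no unit, and the values were taken as FPKM because Cufflinks is named. TopHat2 2.1.0, Cufflinks 2.2.1 and build mm10 are listed, per the submitters' processing notes, without role or order. No source used here gives the annotation, the strand setting or the gene filter. All genes of the table had 1 FPKM or more in at least 2 libraries.

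Columns were assigned to times by the time in the header, which holds no replicate number. The 3 library sets (6, 5 and 3 libraries) come from the number format and header style of the columns. The unirradiated library of set 2 alone was placed by its correlation with the other columns, and no 2 or 6 h library was. Within sets 2 and 3 whole reads were recovered for 10954 genes, 100% of those above 0, at a relative tolerance of 1e-11, and were used for depth alone. An exact 0 in set 1 can be a failed estimate. As a check of the pairing, the deviations of the 2 and 6 h libraries from their time means correlated at 0.848, 0.895 and 0.795 within sets and at -0.613 to -0.292 across sets. Deviations from a mean of 3 libraries sum to 0, so positive values within sets make those across sets negative on average. The negative values therefore add nothing to the check.

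The test was limma 3.58.1 (R 4.3.3) on log2(FPKM + 1) of the deposited values, over all 14 libraries, with time group and library set as fixed terms, an intensity trend, 6 residual degrees of freedom and Benjamini-Hochberg adjustment over 10980 genes at 0.05. It was also run on simulated data with independent errors of 1 size per gene. Those data held no wider pair such as that of set 3, so the run does not bear on that feature. The median residual SD was 0.155, and 0.335 without the set. The contrast equals the mean of the 3 pair differences. An exact test over 3 pairs cannot go below p = 0.25, so none was run. Genes were named by rule: the 15 largest rises and the 15 largest falls among called genes with the same direction in all 3 pairs, and up to 4 called members per list. Uncalled members are given as values. Some genes that the rule names are not reported here. The comparison, the sets, the 39 gene lists and the test were chosen with earlier results of these data known. Alternatives changed the set term, the libraries, the pseudocount, a filter on low values, the scaling, the trend and a muscle covariate.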

Additional observations from a re-analysis of the deposited data

How the results depend on the processing

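The number of called genes, 229, depended on which libraries were fitted more than on how values were scaled. It was 229 with a pseudocount of 0.1, 193 with 5, 194 with a mean FPKM of at least 5, 235 after quantile normalization, 222 with median-of-ratios scaling and 242 without the intensity trend. It was 54 with the skeletal muscle list as a covariate, and 5 with the 6 libraries at 2 and 6 h alone, where 1464 genes had an unadjusted p under 0.05. Without the replicate block, the pairing by library set, it was 0. Leaving out 1 library or 1 whole set gave 4 to 363 genes: at 2 h, dropping set 1, 2 or 3 in turn left 10, 35 and 8, and at 6 h 363, 8 and 81. The cause of these changes was not tested, beyond the fewer libraries that remain. In every alternative the called genes kept their direction, 195 of 195 under the filter and 229 of 229 in the others. Of 928 values of named genes under the 18 alternatives, 430 were still called and 0 were reversed. Every called gene had the same direction in all the pairs, so the kept directions were largely fixed by how the genes were chosen. They are no measure of robustness. Of 700 list medians, 681 moved by less than the spread between the pairs and 19 by more. Dropping the set term, fitting the 6 libraries alone or dropping the intensity trend cannot change a median. In each of these settings 39 of the 681 were therefore fixed in advance. Depth limits rare transcripts such as Sprr2g, and its size in set 1 is unknown.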

Other observations

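Among the called genes outside the lists and the naming rule, a few were picked after their values had been seen, and no test bears on them as groups. Clk4, a paralogue of the splicing kinase Clk1, rose by 0.58 ± 0.11 (limma adjusted p = 0.0344), from 17.4, 26.3 and 6.28 FPKM at 2 h in sets 1, 2 and 3 to 22.1, 39.9 and 11.8 at 6 h. The recombination gene Rad52 rose by 1.01 on the log2 scale, the ubiquitin ligase gene Rad18, which acts at stalled replication forks, by 0.61, and Aplf, a factor of DNA strand break repair, by 0.51. Parp1, the sensor of DNA strand breaks, fell by 0.52. Bcl6, a transcriptional repressor, rose by 0.81, and the chemokine receptor gene Cxcr4 by 0.79. Genes whose symbol is Zfp and a number, also chosen after seeing the values, rose in 10 of 175 cases (5.71%, against 1.43% of all genes) and fell in 1, and their medians were 0.17, 0.10 and 0.31 in sets 1, 2 and 3.

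Enzymes of amino acid and one-carbon metabolism were found among the fallers beside Cbs and Sardh, again picked by eye. Mthfd1, of the folate cycle, fell by 0.70, Aldh4a1, of proline breakdown, by 0.62, Aldh18a1, of proline synthesis, by 0.53, and Mccc2, of leucine breakdown, by 0.56. Some of the widest differences were not called. Ucp3, a mitochondrial carrier of muscle and brown fat, had 4.62, 7.71 and 3.81 FPKM at 2 h and 15.2, 20.5 and 10.7 at 6 h (1.37 ± 0.31, adjusted p = 0.0529). Serpina3n, a protease inhibitor, had 14.9, 21.0 and 32.9 FPKM at 2 h and 30.4, 68.6 and 71.4 at 6 h (1.25 ± 0.29, adjusted p = 0.0543). Cyp2e1, a cytochrome P450, had 10.8, 15.6 and 26.0 FPKM at 2 h and 39.3, 44.0 and 66.4 at 6 h (1.51 ± 0.39, adjusted p = 0.07). Lce1i, of another late cornified envelope subgroup than Lce3c, had 20.4, 8.89 and 11.2 FPKM at 2 h and 7.17, 2.79 and 4.33 at 6 h (-1.32 ± 0.32, adjusted p = 0.0616).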
